A study of Rattus norvegicus with 13 samples.

Results

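Feeding is driven in the mammalian brain by small groups of neurons, most of them in the hypothalamus. This account covers 10 genes of that circuit: the peptide precursors Pmch, Hcrt, Agrp, Npy, Pomc and Cartpt, the melanocortin receptors Mc3r and Mc4r, the leptin receptor Lepr and the ghrelin receptor Ghsr. They were measured in whole brain without the cerebellum from male Fischer F344 rats, an inbred strain, at 15 months of age. The mothers of 7 samples had eaten a control diet and those of 6 samples a high fructose diet, from day 1 of gestation through lactation. All offspring were weaned on day 20 and then ate standard chow, so both groups shared the same diet as adults. Each sample was hybridised to 1 Affymetrix rat gene array, and the values are log2 signals, on which a step of 1 is a doubling.

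A gene was taken as measured where a probe set, the group of short probes summarised to 1 value, had that gene as its single symbol. By this rule 9 of the 10 genes were measured, each with 1 probe set, among 14506 genes and 29214 probe sets in all. Lepr has 0 probe sets of its own, because its 1 probe set is shared with Leprot, and no value is given for it.

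In the arcuate nucleus of the hypothalamus, neurons that make Agrp and Npy promote eating, and neurons that make Pomc and Cartpt restrain it. Pomc is cut into alpha-MSH, which activates the melanocortin receptors Mc3r and Mc4r, and Agrp blocks these receptors. Leptin from fat and ghrelin from the stomach act on this circuit through Lepr and Ghsr. Pmch, the precursor of melanin-concentrating hormone, and Hcrt, the precursor of the orexins, are made in the lateral hypothalamus and promote feeding, and the orexins also promote wakefulness. Npy and Cartpt are also made by neurons outside the hypothalamus, Npy widely in cortical and striatal interneurons.

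The RefSeq promoter table for the build GRCr8 had an entry for 9 of the 10 genes, and Pmch was not among them. The 250 bases before the start site that the table uses are shown for the genes whose signals varied together across arrays (Agrp with Mc3r, and Hcrt with Pomc) and for the pair that varied most between samples (Npy and Cartpt). Agrp, Mc3r, Hcrt and Pomc also followed the spread of signals on each array, described below, and shared control of their promoters was not tested. Each is printed 5′ to 3′ on the strand of the gene, and capitals mark a TATAAA or TGACG match on either strand. The Agrp window is chr19:50359498-50359747, the Mc3r window chr3:181434526-181434775, the Hcrt window chr10:86191525-86191774, the Pomc window chr6:32659103-32659352, the Npy window chr4:80211861-80212110 and the Cartpt window chr2:32991236-32991485. Agrp, Hcrt and Cartpt lie on the minus strand and the other 3 on the plus strand.
Agrp: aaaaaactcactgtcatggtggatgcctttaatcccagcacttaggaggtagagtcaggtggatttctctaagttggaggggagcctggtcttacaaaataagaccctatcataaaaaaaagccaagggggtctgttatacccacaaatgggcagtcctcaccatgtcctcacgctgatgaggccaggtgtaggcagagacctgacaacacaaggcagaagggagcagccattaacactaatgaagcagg
Mc3r: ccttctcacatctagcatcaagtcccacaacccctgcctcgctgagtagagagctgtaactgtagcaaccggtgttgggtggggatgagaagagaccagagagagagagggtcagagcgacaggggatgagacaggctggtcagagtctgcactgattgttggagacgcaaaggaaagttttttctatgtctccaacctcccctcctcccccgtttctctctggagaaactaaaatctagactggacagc
Hcrt: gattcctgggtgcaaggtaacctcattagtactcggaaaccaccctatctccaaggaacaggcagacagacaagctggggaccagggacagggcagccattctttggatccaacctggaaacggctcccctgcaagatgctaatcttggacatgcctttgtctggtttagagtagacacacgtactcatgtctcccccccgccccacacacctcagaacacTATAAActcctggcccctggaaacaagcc
Pomc: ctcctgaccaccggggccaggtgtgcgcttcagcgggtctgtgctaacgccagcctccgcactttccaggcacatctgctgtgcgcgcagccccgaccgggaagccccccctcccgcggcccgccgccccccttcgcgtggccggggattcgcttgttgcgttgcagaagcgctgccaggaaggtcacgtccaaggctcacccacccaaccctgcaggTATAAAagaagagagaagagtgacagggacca
Npy: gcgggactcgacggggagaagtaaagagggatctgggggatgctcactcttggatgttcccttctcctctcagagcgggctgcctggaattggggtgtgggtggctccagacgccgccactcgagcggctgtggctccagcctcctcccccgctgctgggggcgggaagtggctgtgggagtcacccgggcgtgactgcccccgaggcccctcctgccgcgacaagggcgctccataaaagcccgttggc
Cartpt: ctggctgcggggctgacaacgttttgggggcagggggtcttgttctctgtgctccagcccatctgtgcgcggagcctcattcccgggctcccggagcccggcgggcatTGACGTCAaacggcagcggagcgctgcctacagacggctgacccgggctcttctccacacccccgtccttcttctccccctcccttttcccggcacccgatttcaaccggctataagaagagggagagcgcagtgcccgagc

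TATAAA, the core of the TATA box, was found once each in the Hcrt and Pomc windows, beginning 29 and 32 bases before the start site, and in 12.9% of all 33469 promoters of the table over the same length. TGACG, a half-site of the cAMP response element, was found in the Cartpt window on both strands, as overlapping matches, and in 18.2% of all promoters. TTCNNNGAA, the pattern bound by STAT factors such as the one that leptin activates, was in 0 of the 9 windows and in 7.67% of all promoters, and TGTTTAC, a forkhead core, in 0 of 9 and 3.21%. CANNTG, the E-box, occurred 3 times in the Agrp window, 2 times in the Pomc window, once each in the Cartpt and Lepr windows, and in 65.5% of all promoters, and GGGCGG, the GC box core, occurred once each in the Hcrt, Npy and Pomc windows and in 30.5%. An E-box can overlap other motifs, and a match here describes letters only. The share of G and C was 67.6% for Npy, 66.4% for Pomc and 65.6% for Cartpt, against 48% for Agrp and a median of 51.2% over all promoters.

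Most of these genes gave dim signals in whole brain. Against 15310 probe sets with a single gene, whose mean signals had a median of 8.06 and ran from 5.19 at the 5th to 10.90 at the 95th percentile, Npy stood at the 93.0th percentile with a mean of 10.60. Agrp stood at the 55.6th percentile (8.31), Hcrt at the 35.9th (7.41), Pomc at the 34.8th (7.37), Cartpt at the 26.6th (6.97), Ghsr at the 25.7th (6.93), Mc4r at the 23.5th (6.82), Mc3r at the 12.3rd (6.09) and Pmch at the 9.35th (5.78). Probes of different genes bind with different strength, so these positions are not an order of transcript abundance.

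The table gave no detection p-values. As a rough scale for dim signals, the 1128 probe sets of olfactory receptor genes, a family expressed mainly in the nose, had a median mean signal of 5.48 and a 95th percentile of 6.83. Pmch lay at the 63.8th percentile and Mc3r at the 75.1st percentile of that family. Mc4r lay at the 94.9th, Ghsr at the 95.9th and Cartpt at the 96.4th, while Pomc, Hcrt, Agrp and Npy lay at 98.2 or above.

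**Figure D1:**
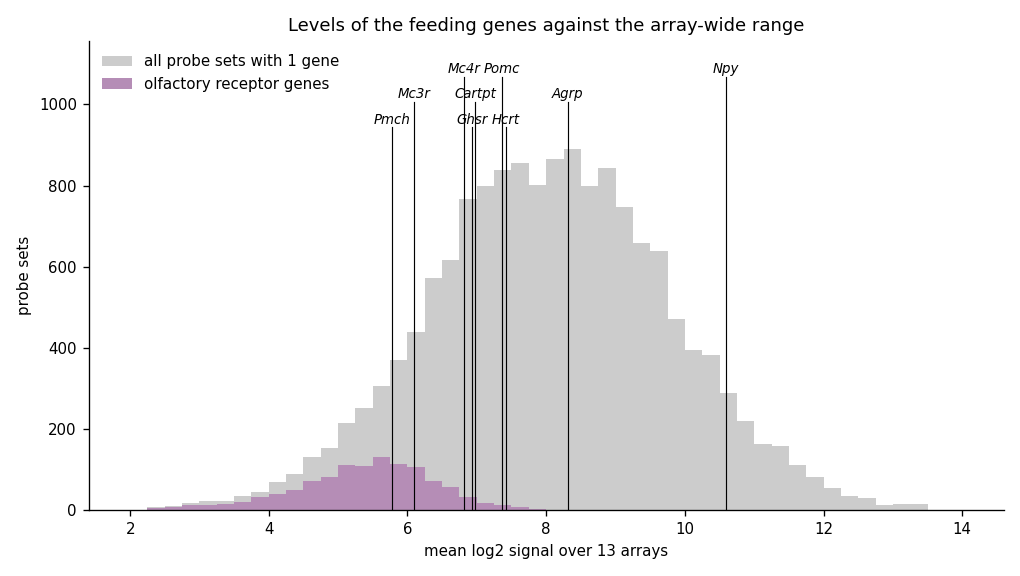
The grey bars count probe sets with a single gene by their mean log2 signal over 13 arrays, the purple bars those of olfactory receptor genes, and each vertical line is the mean of a feeding gene. Pmch (5.78), Mc3r (6.09) and Mc4r (6.82) lie below the 95th percentile of the purple distribution (6.83), and Npy (10.60) lies above all of it.

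Arrays were alike, with correlations between pairs from 0.9852 to 0.9976 over the 15633 probe sets that have at least 1 gene. Control replicates 1 and 2 stood apart by narrower signal distributions. Their interquartile ranges, the span of the middle of the distribution, were 2.19 and 2.15, against 2.26 to 2.50 in the other 11 arrays. In these 2 arrays the dimmest probe sets lay higher than in the other 5 control arrays (median 0.14) and the brightest lower (median -0.077), so results that rest on them are given with and without them. Cerebellar markers were measured for 10 of 10 listed genes, and 8 of the 10 lay below the 50th percentile of probe sets, with a median at the 34.1st. They ran from Gabra6, which defines cerebellar granule cells, at the 8.13th percentile to Neurod1 at the 60.8th and Calb1, which other brain regions also express, at the 81.9th. Of 26 listed hypothalamic genes 21 were measured, and 17 of the 21 lay below the 50th percentile, with a median at the 32.4th. They ran from Gpr101 at the 16.6th to the transcription factor gene Nhlh2 at the 65.8th, and Sim1, another transcription factor gene, lay at the 21.7th. Oxt and Avp, the oxytocin and vasopressin genes of large hypothalamic neurons, lay at the 42.0th and 38.9th percentiles.

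The comparison of the groups asked whether a maternal fructose diet left a difference in feeding genes in old offspring. It did not pass the test for any of the 9. In limma, a linear model fitted over all 15633 probe sets with Benjamini-Hochberg adjustment, 0 of 9 members passed an adjusted p of 0.05, where 0% of all probe sets passed. The adjusted p was 0.9998 for each of the 9. At an unadjusted p under 0.05, 1 of the 9 was lower in the fructose group, against 0.896% of all probe sets, and 0 were higher, against 1.33%. Of the 9 differences, 7 were negative (fructose below control), against 45.9% of all probe sets, and the median was -0.049, against 0.0056 over all probe sets tested. The groups overlapped for all 9 genes, and did not overlap for 0.0384% of all probe sets. In RNA of a whole brain, fewer cells of a type and less RNA per cell cannot be told apart.

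Among the peptides that promote feeding, Pmch had the smallest unadjusted p. Its signal in control samples ran from 5.68 (lowest) over 5.84 (median) to 6.10 (highest), and in fructose samples from 5.61 over 5.68 to 5.87. Of the 6 fructose samples, 5 lay below the control mean, fructose replicate 7 being the exception, and the groups overlapped. The means were 5.85 ± 0.13 (SD, n = 7) and 5.71 ± 0.09 (SD, n = 6), a difference of -0.14 ± 0.06 (SE) with a 95% interval from -0.27 to -0.0083, or 0.828-fold to 0.994-fold. The unadjusted p from limma was 0.0387 and the exact 2-sided permutation p over the 1716 ways to part the arrays was 0.0402. The limma p was the smallest of all members, and after adjustment it was 0.9998. The signal was dim, at the 63.8th percentile of the olfactory receptor probe sets. Without control replicates 1 and 2 the difference was -0.093 (interval -0.21 to 0.023).

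Hcrt, the orexin precursor, ran from 7.26 over 7.51 to 7.73 in control and from 7.23 over 7.33 to 7.46 in fructose samples. Control replicates 1 to 4 were the highest of the 13 arrays, at 7.51 or more, and control replicates 5, 7 and 8 lay among the fructose samples. All 6 fructose samples lay below the control mean. The means were 7.48 ± 0.18 (SD, n = 7) and 7.34 ± 0.09 (SD, n = 6). The difference was -0.13 ± 0.08 (SE), with an interval from -0.30 to 0.030 and an exact permutation p of 0.126. It was -0.059 without control replicates 1 and 2, which is over 1.5 times smaller.

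Agrp, the blocker of the melanocortin receptors, ran from 8.12 over 8.31 to 8.63 in control and from 8.10 over 8.20 to 8.41 in fructose samples. Control replicate 1 (8.63) and control replicate 2 (8.57) were highest, followed by control replicate 4 (8.45). The means were 8.37 ± 0.19 (SD, n = 7) and 8.24 ± 0.13 (SD, n = 6), a difference of -0.13 ± 0.08 (SE) with an interval from -0.31 to 0.047 and an exact permutation p of 0.178. Without control replicates 1 and 2 the control mean was 8.28 and the difference -0.038 (interval -0.19 to 0.12). Without control replicate 1 alone it was -0.086, and without control replicate 5 and fructose replicate 8, a setting chosen after seeing the data, it was -0.20.

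Npy, the peptide that shares the hunger neurons with Agrp, varied far more between samples. Its signal ran from 10.25 over 10.38 to 11.76 in control and from 10.06 over 10.53 to 11.29 in fructose samples. Control replicate 5 (11.76) and fructose replicate 8 (11.29) stood above the other 11 arrays, of which the highest was control replicate 4 at 10.74. The within-group SD was 0.48, wider than that of 99.2% of all probe sets with a single gene, whose median was 0.11. The means were 10.62 ± 0.53 (SD, n = 7) and 10.57 ± 0.41 (SD, n = 6), with a difference of -0.049 ± 0.23 (SE) and an interval from -0.54 to 0.44, or 0.689-fold to 1.36-fold. The sign rested on single arrays, with 0.14 without control replicate 5 and 0.053 without fructose replicate 4. Without both control replicate 5 and fructose replicate 8 the difference was -0.0030, and without control replicates 1 and 2 it was -0.18.

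Among the peptides that restrain feeding, Pomc ran from 7.23 over 7.33 to 7.63 in control and from 7.19 over 7.36 to 7.51 in fructose samples. The groups covered nearly the same range, with control replicate 2 highest and fructose replicate 7 lowest. The means were 7.38 ± 0.13 (SD, n = 7) and 7.35 ± 0.12 (SD, n = 6), a difference of -0.028 ± 0.07 (SE) with an interval from -0.17 to 0.12. It turned to 0.035 without control replicates 1 and 2, to 0.013 without control replicate 2 alone and to 0.0047 without fructose replicate 7.

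Cartpt, the CART peptide precursor, had the second widest spread, with a within-group SD of 0.38 that exceeded 98.4% of all probe sets with a single gene. Its signal ran from 6.17 over 6.98 to 7.66 in control and from 6.66 over 7.18 to 7.28 in fructose samples. Control replicate 5, the array with the highest Npy, was lowest, and control replicate 8 was highest. The means were 6.92 ± 0.44 (SD, n = 7) and 7.04 ± 0.28 (SD, n = 6), a difference of 0.13 ± 0.18 (SE) with an interval from -0.26 to 0.52. It was 0.0043 without control replicate 5, 0.080 without fructose replicate 8, 0.20 without fructose replicate 2, 0.19 without fructose replicate 4, 0.25 without control replicate 8, and -0.044 without both control replicate 5 and fructose replicate 8.

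Of the melanocortin receptors, Mc4r, whose loss causes obesity in rodents and people, ran from 6.67 over 6.84 to 7.40 in control and from 6.60 over 6.69 to 6.86 in fructose samples. Control replicate 1 stood alone at 7.40, with the next control sample at 6.94. All 6 fructose samples lay below the control mean of 6.90, which includes that array and exceeds the control median of 6.84. Fructose replicates 2 and 7 (each 6.86) lay above the control median. The means were 6.90 ± 0.23 (SD, n = 7) and 6.72 ± 0.12 (SD, n = 6), a difference of -0.19 ± 0.10 (SE) with an interval from -0.39 to 0.019. The unadjusted p from limma was 0.0725, and the exact permutation p was 0.0746. Without control replicate 1 the difference was -0.10, over 1.5 times smaller, and without control replicates 1 and 2 it was -0.10 (interval -0.24 to 0.038). Mc3r, the other brain melanocortin receptor, ran from 5.77 over 6.12 to 6.31 in control and from 5.92 over 6.11 to 6.18 in fructose samples. Its means differed by far less than their spread, 6.09 ± 0.17 (SD, n = 7) and 6.09 ± 0.10 (SD, n = 6), with a difference of -0.0052 (interval -0.17 to 0.16). That sign turned without control replicate 1 (0.031), 2 (0.020) or 3 (0.0027), without fructose replicate 3 (0.0061) or 7 (0.028), without control replicates 1 and 2 together (0.069), and with all arrays under cyclic loess (0.0038) or array weights (0.032).

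Ghsr, the ghrelin receptor, was higher on average in the fructose group by a margin within its spread. It ran from 6.67 over 6.88 to 7.06 in control and from 6.82 over 6.95 to 7.41 in fructose samples. Fructose replicate 4 stood alone at 7.41, with the next fructose sample at 6.99. The means were 6.88 ± 0.13 (SD, n = 7) and 6.999 ± 0.21 (SD, n = 6), a difference of 0.12 ± 0.09 (SE) with an interval from -0.066 to 0.31 and an exact permutation p of 0.252. The difference was 0.038 without fructose replicate 4, over 1.5 times smaller, and 0.18 without control replicates 1 and 2 (interval -0.018 to 0.38).

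**Figure D2:**
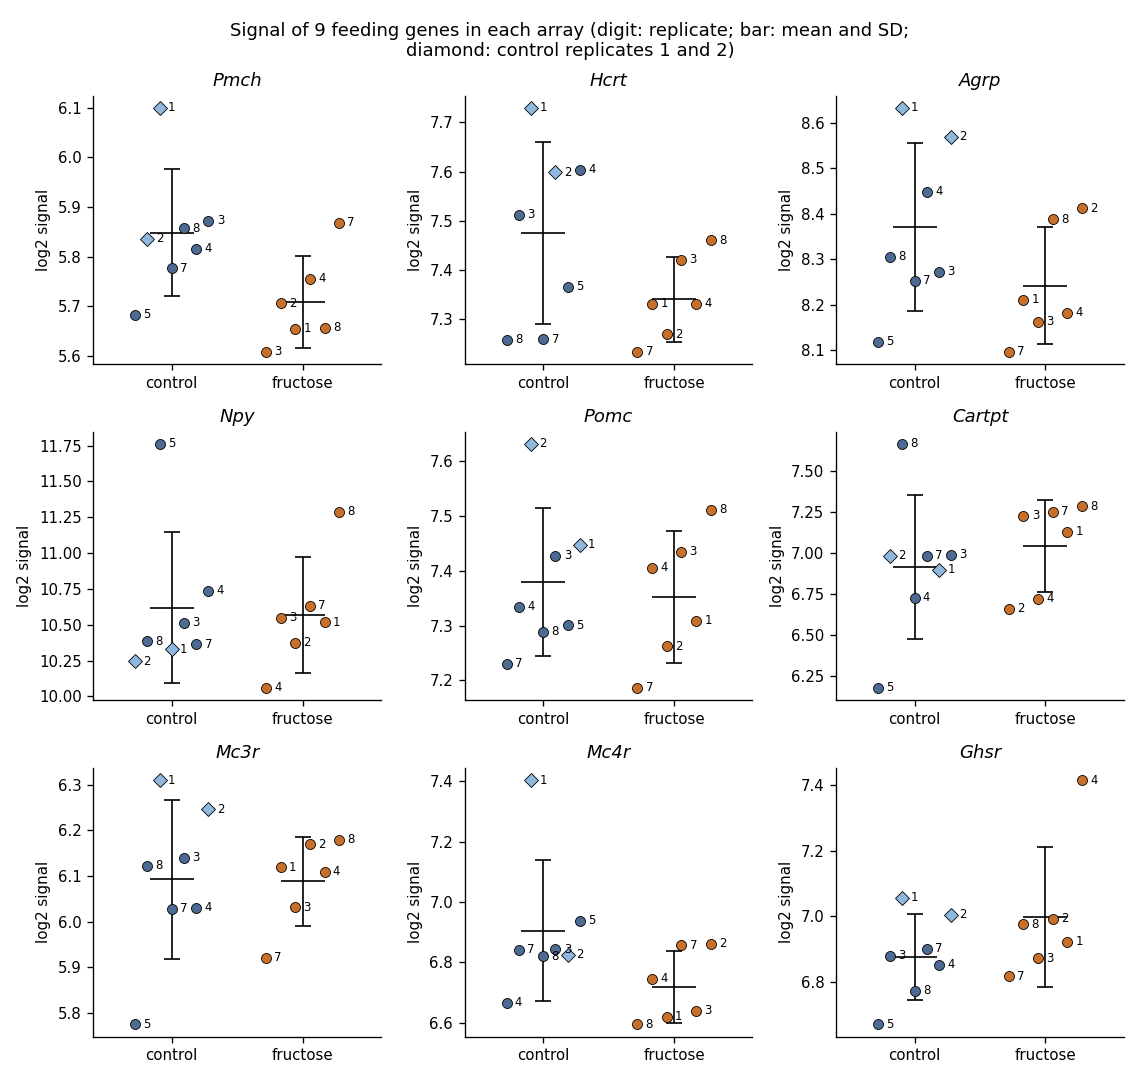
Each panel plots the log2 signal of a feeding gene in the 7 control and 6 fructose arrays, with the replicate number beside each point and a bar for the mean and SD. Control replicates 1 and 2 (diamonds) are the 2 highest arrays for Agrp and Mc3r, control replicate 1 is highest for Mc4r (7.40), and control replicate 5 is highest for Npy (11.76) and lowest for Cartpt (6.17).

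Without control replicates 1 and 2, 0 of the 9 genes passed, where 0% of all probe sets passed in limma, and 0 of 9 had an unadjusted p under 0.05, against 4.59% of all probe sets. Of the 9 differences, 5 were then negative, against 48.6% of all probe sets, with a median of -0.038 against 0.0022 over all probe sets. Leaving out these arrays brought the differences of Pmch, Hcrt, Agrp and Mc4r closer to 0, took those of Npy, Cartpt and Ghsr farther from it, and turned those of Pomc and Mc3r. With the interquartile range of each array as a covariate, a setting chosen after seeing the data, the differences were -0.13 for Pmch, -0.10 for Hcrt, -0.090 for Agrp and -0.17 for Mc4r. The smallest unadjusted p among the members was then 0.0484, for Pmch, and 0 members passed after adjustment.

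**Figure D3:**
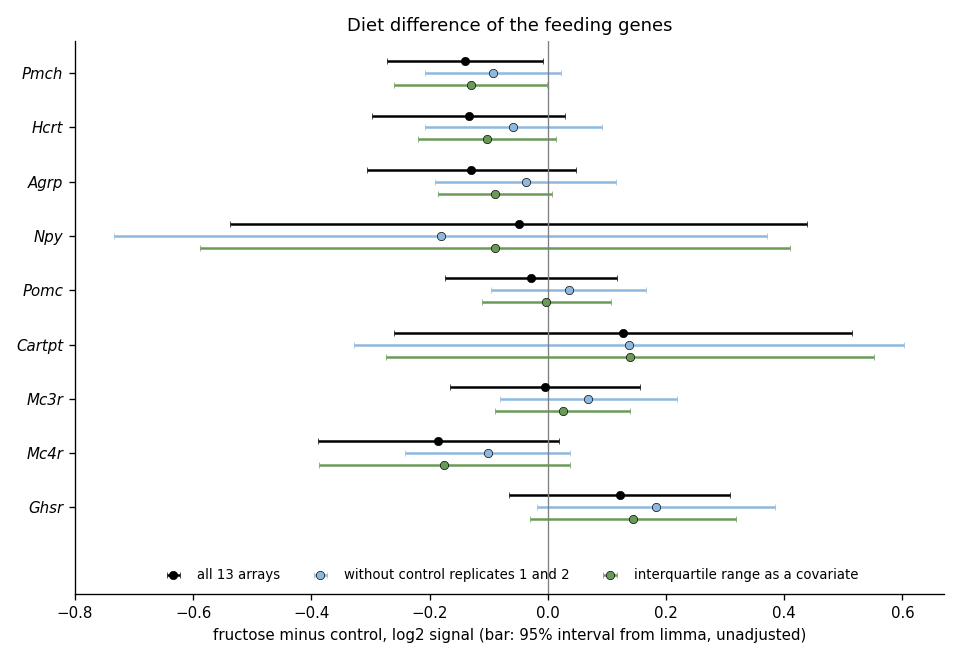
Points give fructose minus control on the log2 scale for 9 genes and bars the unadjusted 95% interval from limma, with all 13 arrays, without control replicates 1 and 2, and with the interquartile range of the array as a covariate. The intervals of Npy and Cartpt are the widest, and with all arrays only the Pmch interval (-0.27 to -0.0083) leaves out 0.

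Several members followed the width of the array distribution. Control replicate 1 held the highest of the 13 values for 5 of the 9 genes (Pmch, Hcrt, Agrp, Mc3r and Mc4r), against 14.7% of all probe sets tested, and 29.9% and 25.8% in the dimmest and the next dimmest of 5 equal bins of probe sets by mean signal, where 7 of the 9 genes lay. Control replicates 1 and 2 were above the mean of the other 5 control arrays by 0.32 for Agrp, 0.29 for Mc4r and 0.26 for Hcrt and Mc3r. The values were 0.22 for Pomc, 0.21 for Ghsr, 0.17 for Pmch and 0.033 for Cartpt. The Mc4r value rested on control replicate 1 (7.40), as control replicate 2 (6.82) lay near the mean of the other 5 (6.82). For Npy the difference was -0.46, and the other 5 arrays include control replicate 5, the highest at 11.76. The median of control replicates 1 and 2 minus the other 5 control arrays was 0.14 over the dimmest bin and 0.12 over the next. It was -0.052 over the bin of Agrp and -0.077 over that of Npy. Control replicate 1 was highest for 9.37% of probe sets in the bin of Agrp and 5.82% in that of Npy.

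With group means removed, Agrp correlated with the interquartile range over the 13 arrays at Pearson r = -0.89 (permutation p = 5e-05, adjusted p = 0.00045 over 9 relations) and Spearman rho = -0.89 (permutation p = 0.00014, adjusted p = 0.0013). Without control replicates 1 and 2, the arrays farthest from the median width, r was -0.80. Mc3r gave r = -0.77 (permutation p = 0.0020, adjusted p = 0.0060) and rho = -0.71 (permutation p = 0.0078, adjusted p = 0.023), with -0.59 without those arrays. Hcrt gave r = -0.77 (permutation p = 0.0018, adjusted p = 0.0060) and rho = -0.84 (permutation p = 0.00060, adjusted p = 0.0027), with -0.62 without them. For Pomc the values were r = -0.74 (permutation p = 0.0040, adjusted p = 0.0089) and rho = -0.70 (permutation p = 0.010, adjusted p = 0.023), with -0.50 without them. The other 5 genes did not pass, with r from -0.49 for Ghsr to 0.31 for Npy. These 4 of 9 genes had r under -0.7, as did 11.5% of all probe sets tested. Of all probe sets tested, 1.43% had an r at or below that of Agrp, 7.25% at or below that of Mc3r, 7.33% for Hcrt and 9.29% for Pomc. In the bin of Agrp the share was 9.18%, in that of Mc3r (the dimmest) 17.8%, and in that of Hcrt and Pomc 29.1%.

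**Figure D4:**
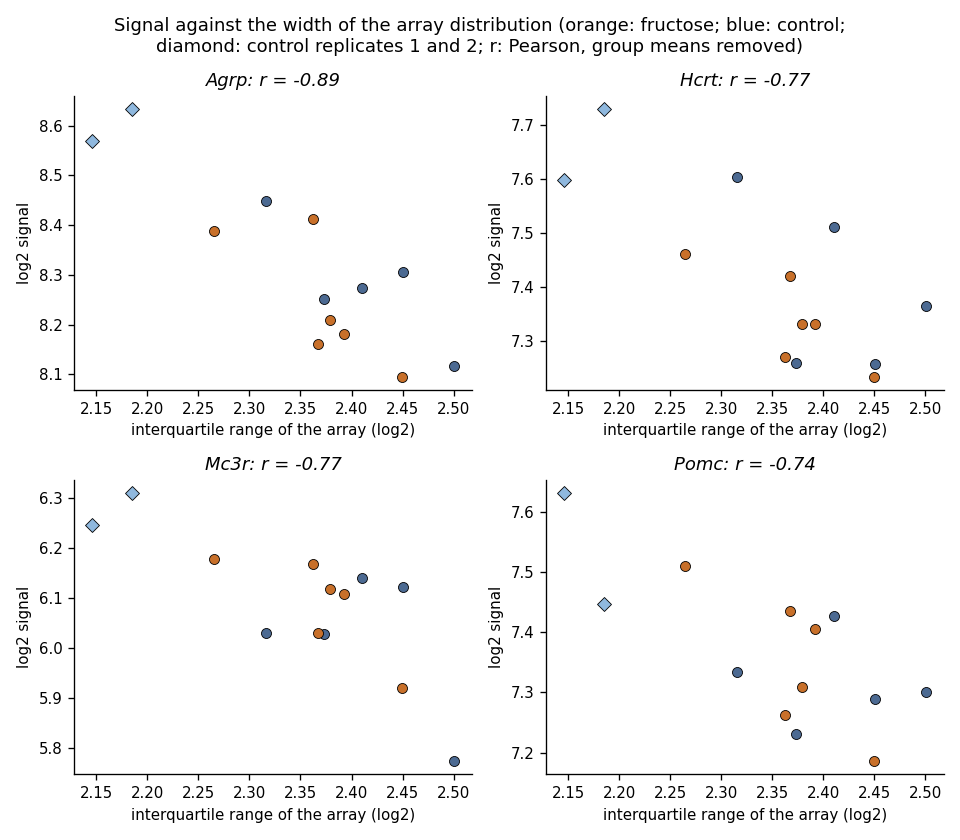
Each panel plots the log2 signal of a gene against the interquartile range of the array, with control arrays in blue, fructose arrays in orange and control replicates 1 and 2 as diamonds. All 4 genes are highest in the arrays with the narrowest distributions, with r from -0.89 (Agrp) to -0.74 (Pomc).

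Among the 36 pairs of members, with group means removed, Agrp and Mc3r varied together most closely. Their Pearson r was 0.85 (permutation p = 0.00014, adjusted p = 0.0050 over 36 pairs) and rho 0.85 (permutation p = 0.00042, adjusted p = 0.015), and r was 0.72 without control replicates 1 and 2. With the interquartile range taken out of both genes r was 0.54. So close a relation was not particular to this pair: of 14497 genes compared, 473 had r over 0.8 with Agrp and 147 with Mc3r. Hcrt and Pomc gave r = 0.74 (permutation p = 0.0043, adjusted p = 0.077) and rho = 0.77 (permutation p = 0.0032, adjusted p = 0.038), with r = 0.80 without control replicates 1 and 8 and 0.39 with the interquartile range taken out. Npy and Ghsr ran opposite, with r = -0.61 (permutation p = 0.039, adjusted p = 0.18) and rho = -0.80 (permutation p = 0.0017, adjusted p = 0.030), and r = -0.81 without control replicate 5 and fructose replicate 8. By r 1 pair passed after adjustment, and by rho 3 did. Npy and Agrp, which share neurons in the arcuate nucleus, gave r = -0.33 (permutation p = 0.28, rho = -0.38 with permutation p = 0.20), and Pomc and Cartpt gave r = 0.076 (permutation p = 0.81, rho = 0.030 with permutation p = 0.92). Pmch and Mc4r gave r = 0.73 (permutation p = 0.0085, adjusted p = 0.10; rho = 0.47 with permutation p = 0.11), which was 0.025 without control replicate 1 and fructose replicate 7 and so rested on those arrays.

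**Figure D5:**
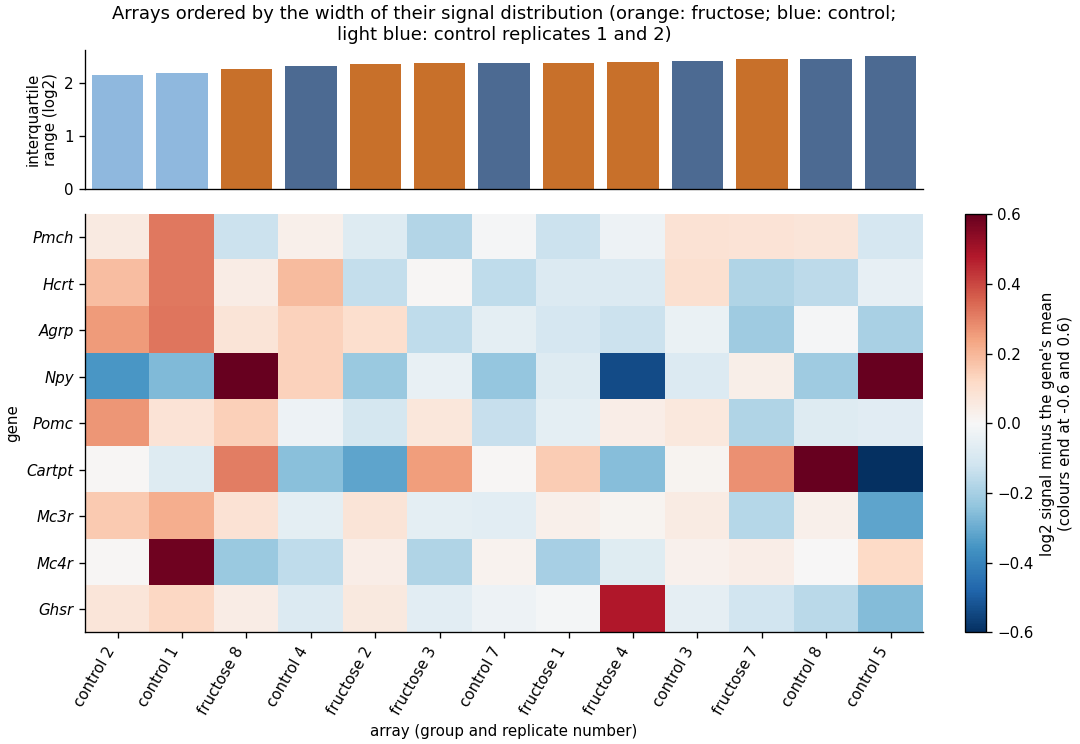
The upper bars give the interquartile range of each array, and the lower colours the log2 signal of each gene minus its mean over 13 arrays, with arrays ordered by that range. Agrp, Hcrt and Mc3r are above their means in the narrow arrays at the left, Npy is high in fructose replicate 8 and control replicate 5, and Cartpt is highest in control replicate 8 and lowest in control replicate 5.

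Markers of other tissues were set beside the members, 9 genes against 7 lists in 63 relations. Pomc is also made by corticotroph cells of the pituitary, and 11 of 12 listed pituitary genes were measured. The pituitary list had a mean signal per array of 6.31 to 6.53 in control and 6.31 to 6.41 in fructose samples. The growth hormone gene Gh1 lay at the 18.3rd percentile of probe sets and the prolactin gene Prl at the 11.4th. The list mean correlated with Agrp at r = 0.85 (permutation p = 0.00029, adjusted p = 0.018; rho = 0.84, permutation p = 0.00066, adjusted p = 0.042), with Mc3r at r = 0.82 (permutation p = 0.00076, adjusted p = 0.024; rho = 0.76, permutation p = 0.0038, adjusted p = 0.071) and with Pomc at r = 0.77 (permutation p = 0.0022, adjusted p = 0.046; rho = 0.71, permutation p = 0.0085, adjusted p = 0.082). By rho, then, only Agrp passed with this list. Without control replicates 1 and 2 these r were 0.69, 0.73 and 0.58. The list itself correlated with the interquartile range at r = -0.91, and with that range taken out r was 0.17 for Agrp, 0.45 for Mc3r and 0.35 for Pomc. With the choroid plexus list, 6 of 7 genes measured, Hcrt gave rho = 0.81 (permutation p = 0.0014, adjusted p = 0.043) and r = 0.65 (permutation p = 0.017, adjusted p = 0.12), and r was 0.63 without control replicate 5 and fructose replicate 7. Pomc gave r = 0.71 (permutation p = 0.0066, adjusted p = 0.084; rho = 0.75, permutation p = 0.0045, adjusted p = 0.071) and Mc3r r = 0.67 (permutation p = 0.012, adjusted p = 0.11; rho = 0.70, permutation p = 0.010, adjusted p = 0.082). Without those arrays r was 0.65 for Pomc and 0.24 for Mc3r. The choroid plexus list also correlated with the interquartile range, at r = -0.67, and that range was not taken out of its relations.

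In control replicate 8, the array with the highest Cartpt, several lists of regional markers were also at their extremes. That array had the highest mean of the hypothalamus list (7.67, against 7.26 to 7.48 in the other control samples). It also had the highest of the thalamus list (8.49, from 4 of 7 listed genes measured) and of the striatum list (8.58). Its mean of the cortex and hippocampus list was the lowest (8.29, from 5 of 10 listed genes measured). Lhx9 is in both the hypothalamus and the thalamus list, so these lists are not independent. Over 13 arrays Cartpt correlated with the cortex and hippocampus list at r = -0.69 (permutation p = 0.011, adjusted p = 0.11; rho = -0.58, permutation p = 0.040), and r was -0.37 without control replicate 8 and fructose replicate 3. With the hypothalamus list r was 0.62 (permutation p = 0.028, adjusted p = 0.16; rho = 0.37, permutation p = 0.22), and 0.18 without control replicate 8 and fructose replicate 8, so it rested on those arrays. Without control replicate 8 and fructose replicate 3, a setting chosen after seeing the data, the Cartpt difference was 0.22. The hypothalamus list had a mean of 7.40 in control and 7.35 in fructose samples. Of its genes 16 of 21 were lower, against 45.9% of all probe sets. The median difference was -0.031, and it was 0.031 without control replicates 1 and 2. The part of the dissection in the differences of the members was not tested.

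Receptors and partners of these peptides were taken from 4 lists, with 56 of 63 genes measured. In limma 0 of the 56 passed, and 1 had an unadjusted p under 0.05, as did 348 of the 15633 probe sets tested. Of the 56 differences (fructose minus control), 24 were positive and 32 negative, against 45.9% negative over all probe sets. The median difference was -0.0055, against 0.0056 over all probe sets. Of the receptors of the member peptides, 9 of 10 measured were lower, against 45.9% of all probe sets, with a median of -0.023. Without control replicates 1 and 2, 7 were lower, against 48.6% of all probe sets, and the median was -0.032. The Npy receptor gene Npy2r averaged 7.63 ± 0.52 (SD, n = 7) after the control diet and 7.34 ± 0.58 (SD, n = 6) after fructose, with an interval of the difference from -0.85 to 0.27. The difference was -0.29, and -0.46 without control replicates 1 and 2. The orexin receptor gene Hcrtr2 differed by -0.078, and by -0.0091 without those arrays. Npy4r, a receptor for pancreatic polypeptide, differed by 0.061, and by 0.031 without them.

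Genes that process the precursors or assist the melanocortin receptors were divided, with 7 of 12 higher and a median of 0.0052. This turned to 8 of 12 lower and a median of -0.014 without control replicates 1 and 2. Pcsk1n, an inhibitor of a convertase that cuts Pomc, had a difference of 0.18 ± 0.08 (SE) with an unadjusted p of 0.0476 from limma, and a difference of 0.065 without control replicates 1 and 2. Asip, the skin relative of Agrp, differed by -0.17 (interval -0.35 to 0.013), Mgrn1 by 0.056 and Atrn by -0.038, and without those arrays by -0.11, 0.035 and -0.037. Leptin and ghrelin ligands and signalling genes had 8 of 15 higher and a median of 0.016, which turned to 10 of 15 lower and -0.015 without those arrays. With all arrays Jak2, the kinase of the leptin receptor, was at -0.083, Leap2, an antagonist of Ghsr, at -0.045, the kinase gene Camkk2 at 0.18 and Crtc1 at 0.054. They were at -0.11, -0.022, 0.23 and 0.023 without control replicates 1 and 2. Other peptides and receptors of the feeding circuits had 11 of 19 lower and a median of -0.0067 (10 lower and -0.018 without those arrays), with the galanin gene Gal at -0.16, the calcitonin receptor gene Calcr at -0.27, Glp1r at 0.068 and Ntsr1 at 0.087. They were at -0.19, -0.27, 0.15 and 0.12 without control replicates 1 and 2.

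The genes most like each member across the 13 arrays, by Pearson r with group means removed among 14497 genes, are given as a description of these arrays. Agrp was most like H1f8 (r = 0.97), Misp (0.97) and Car5a (0.95), and 473 genes had r over 0.8 with it. Hcrt was most like Rabep2 (0.95), Pkd2l1 (0.94) and Itga11 (0.94), with 392 genes over 0.8. Pomc was most like the olfactory receptor gene Or8g18e (0.95), 1700001K19Rikl (0.92) and Hist1h2af (0.91), and Mc3r like Mtarc1 (0.94), Mk1 (0.93) and the olfactory receptor gene Or9g10 (0.93). Mc4r was most like Csnk1a1 (0.93), Or4a77 (0.91) and Yme1l1 (0.90), Ghsr like Or2b11 (0.95), Npr3 (0.94) and Fermt1 (0.92), and Pmch like Ly49i2 (0.89), C9 (0.88) and Yipf5 (0.88). Npy was most like Bltp3b (0.92), Crabp1 (0.91) and Ccnf (0.89), and Cartpt like Rps4y2, Ebf1 and Peli2 (0.88, 0.87 and 0.87). Npy had 57 genes over 0.8, Ghsr 28, Mc4r 26, Pmch 19 and Cartpt 18, against 115 for Pomc and 147 for Mc3r.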

How the data were processed

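The deposited values were log2 signals of 13 arrays, 1 column per sample. They were made with RMA, which corrects background, equalises distributions and summarises probes, and with R 3.0.1, per the submitters' processing notes. Other settings and the annotation build: not given in the sources used here. Genes were named from the platform annotation: 15310 probe sets had 1 gene, 323 several and 13581 none. The 15633 with a gene were fitted with limma 3.58.1 in R 4.3.3 (lmFit, eBayes), fructose minus control, with no filter on dim probe sets, Benjamini-Hochberg adjustment over all of them and a threshold of 0.05. The script was tested on simulated data. Exact permutation tests parted single genes over 1716 splits, and correlations used 100000 permutations (Python 3.11.15, scipy 1.17.1). The labels state neither litters nor separate animals, so p-values cover only the spread among these samples, which may be technical. Precision is set by how many arrays there are and by the spread of each gene among them. The members and lists were chosen with earlier results of these data known. The text names all members, the 3 genes most like each, and from each pathway list the 2 genes with the smallest unadjusted p in each direction. Region markers are given by list, with single defining genes. Other arrays, normalizations, variance models and covariates were tried as alternatives. Promoter sequences come from RefSeq (GRCr8).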

Additional observations from a re-analysis of the deposited data

Results flagged for a closer look

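In 3 of 18 groups of samples (9 genes in 2 diet groups) a single sample lay far from the others by Dixon's criterion, which chance meets in about 1 of 20 groups. Npy in control replicate 5 was at 11.76, with the nearest control sample at 10.74. Mc4r in control replicate 1 was at 7.40, with the nearest at 6.94, and this array also had one of the narrowest signal distributions. Ghsr in fructose replicate 4 was at 7.41, with the nearest fructose sample at 6.99.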

How the results depend on the processing

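Under all 25 alternatives 0 probe sets of the table and 0 members passed the adjusted threshold, and the smallest adjusted p of any member was 0.953. Of 220 member differences under the alternatives, 203 kept their direction and 17 turned. The count includes settings that cannot change a difference: another variance model, the fit over all probe sets of the table and the removal of the 30% dimmest. Pomc turned to 0.035 and Mc3r to 0.069 without control replicates 1 and 2 together. Mc3r also turned to 0.0038 with cyclic loess, to 0.032 with array weights, to 0.025 with the interquartile range as a covariate and to 0.011 without control replicate 8 and fructose replicate 3, and Cartpt turned to -0.044 without control replicate 5 and fructose replicate 8. The last 3 settings were chosen after seeing the data, and the cause of these turns was not tested. With 1 array left out at a time, the difference ran from -0.060 to 0.013 for Pomc, from -0.19 to 0.14 for Npy and from -0.058 to 0.031 for Mc3r, and the median over the members from -0.13 to -0.022. With the replicate number as a block, over the 12 arrays whose number occurs in both groups, Npy turned to 0.14, as it did without control replicate 5, the array that the block leaves out, and no call changed. The other member differences under the block also equalled those without control replicate 5. Deviations of same-numbered arrays correlated at -0.34 to 0.19, and 0 of 6 pairs correlated best with their own number. The labels do not say whether same-numbered samples share anything else, and these correlations cannot decide it. Without the 30% dimmest probe sets only Hcrt, Agrp, Npy and Pomc were tested, and no median over the members was taken. Standard errors of the differences ran from 0.062 for Pmch to 0.23 for Npy, so the precision differed between genes.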
